A study of Mus musculus with 13 samples.

Results

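STAT3 peaks of wild-type (WT) B cells given IL-4 were set against those of STAT3 knockout (KO) B cells given the same treatment. The comparison used 6 CUT&RUN peak lists: 2 of WT IgM+ cells, 2 of WT IgG1+ cells, 1 of KO IgM+ cells and 1 of KO IgG1+ cells. Overlapping peaks on chromosomes 1 to 19, X and Y, with 1 shared bp being enough, gave 5839 merged regions, out of 11227 over all 12 lists of the series. A region was called recurring when 2 or more of the 4 WT lists had a peak there, and 89 regions were. Of these 89, 33 had no peak in either KO list (37.1%, exact 95% Clopper-Pearson interval 27.1 to 48.0) and are called candidate regions below, 0.965% of all 3418 regions with a WT peak. The other 56, with a peak in 1 or both KO lists, are called KO-shared. Having no KO peak was the common state of WT regions: it held for 95.7% of those 3418 regions and for 97.3% of the 3329 regions found in exactly 1 WT list. The membership of both classes was set by the presence of peaks, so these counts are descriptions.

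STAT3 is a transcription factor that lies in the cytoplasm until a receptor-bound Janus kinase phosphorylates it, after which it dimerises and binds DNA at palindromes of the form TTCNNNGAA. In B cells its main activators include IL-21, IL-6 and IL-10, while IL-4 signals mainly through STAT6, whose preferred palindrome has the same ends and a spacer longer by 1 base. Both the IL-4 and the IL-21 receptor use the common gamma chain and the kinase JAK3. KO cells are meant to show where the assay gives a peak without STAT3, but the labels do not say how complete its loss was.

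All cells came from mouse spleen. They first spent 96 h in culture, with IL-4 at 12.5 ng/mL and anti-CD40 at 1 µg/mL. IgM+ and IgG1+ cells were sorted, and 400000 of them received anti-CD40 with IL-4 (12.5 ng/mL) for 1 h more. CUT&RUN tethers a nuclease to chromatin through an antibody (clone 124H6 against STAT3) and sequences the DNA it cuts free. The series also holds parallel lists from cells given anti-CD40 with IL-21 (10 ng/mL) in place of IL-4 for that hour, again 4 from WT and 2 from KO cells, and these were used only as lists that the rule did not use. The labels give the genotype only as WT or STAT3 KO, name no deleter, strain or age, and leave unsaid whether the replicates are from different mice, so p-values measure the spread between these lists, which may be technical. With 1 KO list per isotype, a KO-specific property and a property of a single library cannot be told apart.

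The lists were short. WT IgM+ cells gave 1455 and 853 peaks, WT IgG1+ cells 651 and 623, KO IgM+ cells 763 and KO IgG1+ cells 1892. KO thus had fewer peaks than the mean of WT in IgM+ cells and more in IgG1+ cells, and the mean log2 peak number differed by −0.51 (WT minus KO, exact two-sided permutation within isotype, p = 0.778, smallest possible p 0.111). The smallest called pileup was 10 or 11 fragments in each list, so a missing peak is no sign of missing binding. Only 2.68% to 7.22% of the peaks of a WT list overlapped a peak of another given WT list, against 4.92% to 6.46% that overlapped a peak of a given KO list. Of 6 defining B cell markers 1 (Ebf1) had a WT region, of 6 myeloid markers 1 (Itgam) and of 6 T and NK cell markers 0, and none of the 18 was a candidate region. In the KO lists the counts were 1 (Cd79a), 1 (Adgre1) and 0. Of all 21887 protein-coding genes 10.8% had a WT region. Peak lists of a transcription factor do not measure expression, so they are no test of the cell type.

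The candidate regions are shown first by the stretches that hold the STAT palindrome. Of the 33, 21 overlapped a RefSeq promoter window (GRCm38.p6, 250 bases before to 50 after a transcription start), and in 10 of these 21 regions the window held TTCNNNGAA. The palindrome is its own reverse complement, so a search of one strand covers both. Each line gives the palindrome in capitals with 10 flanking bases on each side, on the strand of the gene.

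Thg1l (chr11:45955216-45955244, minus strand): gcgcccacacTTCCGGGAAgtgcgcctct
Crebrf (chr17:26715652-26715680, plus strand): gtcacgcgatTTCCGGGAAcccgtcagga
Ubb (chr11:62551709-62551737, plus strand): gcaacgggccTTCCGGGAAgagtgggcct
Map2k4 (chr11:65788562-65788590, minus strand): ggttctgaggTTCAGAGAAgggagttcta
Icam1 (chr9:21015888-21015916, plus strand): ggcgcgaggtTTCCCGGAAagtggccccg
Fastk (chr5:24445278-24445306, minus strand): acgtgcgcatTTCCCGGAAgcggagggcg
Cpsf7 (chr19:10525123-10525151, plus strand): accgggccacTTCCGGGAAttccgggcgg
Ube2d3 (chr3:135438445-135438473, plus strand): ttctcgatgcTTCTCTGAAtttaagggtt
Brd2 (chr17:34120027-34120055, minus strand): attactttggTTCGGGGAAgacgaggtta
Tial1 (chr7:128461652-128461680, minus strand): tgaactacagTTCCCAGAAggccactgga

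In 4 of the 10, Thg1l, Crebrf, Ubb and Cpsf7, the palindrome was TTCCGGGAA, and in Icam1 and Fastk it was the reverse complement, TTCCCGGAA. Measured from the transcription start to the first base of the palindrome, the site lay at −46 in Thg1l, +12 in Crebrf, −12 in Ubb, −42 in Icam1, −61 in Fastk, −111 in Cpsf7, −25 in Ube2d3 and +3 in Tial1. The Map2k4 and Brd2 sites lay farther up, at −221 and −145. In 6 genes (Thg1l, Crebrf, Icam1, Fastk, Cpsf7 and Tial1) the palindrome was inside the merged region itself, 36 bp (Fastk) to 652 bp (Crebrf) from its best summit. In Ubb, Map2k4, Ube2d3 and Brd2 it lay in the window but outside the region.

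To show a whole promoter of each class, the 250 bases before the start are given for Icam1, a candidate, and for Kpnb1, the KO-shared region at a gene end with a peak in all 4 WT lists. Capitals again mark TTCNNNGAA, which the Kpnb1 stretch does not hold. The best summit of the Icam1 region (chr9:21015755) lies inside the stretch shown. That of the Kpnb1 region (chr11:97188248) lies outside it, 356 bp from the start, so the sequence at that summit was not searched.

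Icam1 promoter (chr9:21015690-21015939, plus strand): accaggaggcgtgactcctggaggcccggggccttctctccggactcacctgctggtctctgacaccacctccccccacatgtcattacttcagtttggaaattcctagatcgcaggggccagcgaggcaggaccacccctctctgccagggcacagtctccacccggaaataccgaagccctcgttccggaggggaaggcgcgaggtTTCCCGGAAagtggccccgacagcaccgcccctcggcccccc
Kpnb1 promoter (chr11:97187893-97188142, minus strand): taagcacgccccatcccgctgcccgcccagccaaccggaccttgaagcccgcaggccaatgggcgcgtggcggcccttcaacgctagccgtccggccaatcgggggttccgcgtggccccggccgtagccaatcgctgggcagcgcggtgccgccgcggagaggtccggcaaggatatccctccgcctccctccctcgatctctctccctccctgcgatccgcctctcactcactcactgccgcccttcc

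The share of regions whose promoter window held the palindrome was 47.6% among candidates (10 of 21, 95% interval 25.7 to 70.2) and 0 of 20 among KO-shared regions (upper limit 16.8%). Regions of 1 WT list with no KO peak gave 7.46% (17 of 228), regions of 1 WT list with a KO peak 11.1% (6 of 54), and regions found only in KO lists 6.87% (16 of 233). Counting only palindromes inside the merged region, the share was 28.6% of candidates (6 of 21) and 0 of KO-shared regions. The other sets, in the same order, gave 3.07%, 9.26% and 3.43%. Counted by single window, 41.4% of candidate windows (12 of 29, interval 23.5 to 61.1) and 0 of 24 KO-shared windows held the palindrome. Of all 32851 promoter windows 8.30% held it. The class difference is thus at the recurring candidates, and regions seen in a single WT list lay near the level of all promoters. Candidate windows had a GC content of 64.3 ± 5.97% (SD, 29 windows) and KO-shared windows 68.7 ± 4.88% (SD, 24 windows). The palindrome was in 5.47% of all windows with 60 to 70% GC and in 1.85% of those with 70 to 80%, and the part of GC content in the class difference was not tested. With the spacer of 4 bases that STAT6 prefers, 0 of 21 candidate regions and 2 of 20 KO-shared regions (Ppp2r3a and Stt3b) had a match, against 6.95% of all windows. These are counts of letters in a fixed window, and the intervals cover counting error only.

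The same count was made per list without using the classes. It still includes the windows of the candidate regions, so it is not separate from the class difference. In the WT IgG1+ lists only 6 and 5 windows held the palindrome. Among the promoter windows that the peaks of a list overlapped, the palindrome was in 9.47% and 13.3% in the WT IgM+ lists (of 264 and 105 windows) and in 10.2% and 21.7% in the WT IgG1+ lists (of 59 and 23). It was in 5.69% in the KO IgM+ list (of 246) and in 7.104% in the KO IgG1+ list (of 183). All 4 WT lists lay above both KO lists, with a mean difference of 7.28 percentage points (exact two-sided permutation within isotype, p = 0.222, smallest possible 0.111). The lists with IL-21 gave 14.5% to 21.6% in WT and 4.58% and 1.35% in KO. Over all 12 lists the difference was 11.3 percentage points, with WT higher in each isotype and treatment (exact permutation, p = 0.0123, the smallest possible of 81 arrangements, adjusted p = 0.160 over the 13 tests of this comparison). This last test was chosen after the data were seen.

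**Figure D1:**
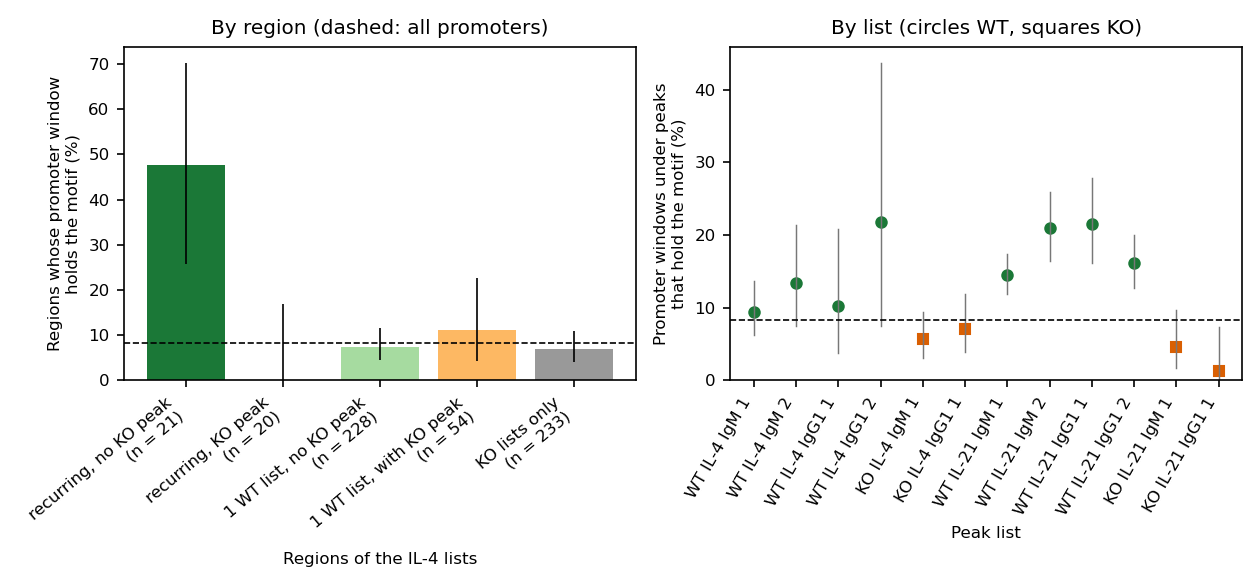
Left, percent of regions whose promoter window holds TTCNNNGAA by class of region in the IL-4 lists. Right, percent of promoter windows under the peaks of each of the 12 lists. Lines are exact 95% intervals. The dashed line marks all promoters (8.30%), counted by single window and not by region. Recurring regions without a KO peak stand at 47.6% and those with one at 0, and the WT lists (circles) lie above the KO lists (squares).

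Lsm4 and Thg1l were the candidate regions with a peak in all 4 WT lists. At Lsm4 (chr8:70673178-70673685, within 1 kb of a gene end), which encodes a subunit of the ring that binds U6 small nuclear RNA, the fold enrichment over local background was 15.99 and 11.03 in IgM+ cells and 18.01 and 10.1 in IgG1+ cells. At Thg1l (chr11:45955214-45955529, at the gene's start), which encodes the enzyme that adds a guanosine to histidine tRNA, it was 13.5 and 10.8 in IgM+ and 19.2 and 8.56 in IgG1+ cells. The mean over the 4 lists was 13.8 ± 3.82 (SD, n = 4) for Lsm4 and 13.0 ± 4.61 for Thg1l. Neither KO list had a peak at either site. Their folds were the highest of any peak in both WT IgM+ lists and in the first WT IgG1+ list. A single region cannot pass a test here, since presence in 4 of 4 WT and 0 of 2 KO lists gives at best p = 0.0667 by Fisher's exact test.

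In 3 of the 4 WT lists, 10 more candidates had a peak. Jak3, the kinase named above, had folds of 6.50 and 3.99 in IgM+ cells and 7.38 in the first IgG1+ list, at chr8:71676145-71676511 across the gene's start (best summit 14 bp away). Batf, an AP-1 family factor needed for class switching, had a region inside the gene (chr12:85705497-85706073) with 4.61 and 3.60 in IgM+ and 4.00 in IgG1+ cells. Batf and Jak3 lacked a peak in the same list, the second IgG1+ one, which was the shortest. Jund, another AP-1 subunit, had 6.41 in the second IgM+ list and 3.43 and 4.68 in the IgG1+ lists, at a region 24711 bp from that of Lsm4 (chr8:70698397-70700219). The other 7 were Otud5 (a deubiquitinase, mean fold 8.01 ± 2.92, n = 3), Lmna (lamin A/C, 7.22 ± 3.54), Slc39a1 (a zinc importer, 6.30 ± 0.03), Crebrf (6.18 ± 2.48), Ubb (ubiquitin, 5.58 ± 1.75), H2ac18 (a histone H2A gene, 5.42 ± 0.86) and Map2k4 (a kinase upstream of JNK, 4.90 ± 2.57). Means are over the lists with a peak, so they leave out lists in which the site was lower than the calling threshold.

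The remaining 21 candidates had a peak in exactly 2 WT lists, just inside the rule. Their median folds were 4.62 and 4.22 in the IgM+ lists and 5.00 and 4.85 in the IgG1+ lists, while the regions just outside it, with 1 WT list and no KO peak, had 4.29, 4.37, 4.41 and 4.78. The highest means among them were 8.19 ± 2.24 (n = 2) at Glt28d2, the only candidate 1 to 50 kb from a gene, and 6.67 ± 1.76 at Icam1, an adhesion molecule of activated lymphocytes (7.92 and 5.43 in the IgM+ lists, none in the IgG1+ lists, chr9:21015228-21016263). Gadd45b, a stress response gene, had 5.04 and 7.13, and Fastk, a regulator of mitochondrial RNA, had 4.98 and 5.43, each in the first list of each isotype. The promoter of Stat3 itself (chr11:100939592-100940074) had 3.57 and 4.70 in the IgM+ lists and no peak in the IgG1+ lists. The KO lists had none there, and their only peak at Stat3 was in the KO IgM+ list, inside the gene at chr11:100931723-100932049 (fold 4.78). Junb had 4.62 and 4.22 in the IgM+ lists. The others placed high by number of lists and rank were Mcm9, H3c15, Cpsf7, Tmem266, Paqr3, Septin9, Ube2d3 and Brd2, with mean folds of 3.88 to 5.34. Reads from H2ac18, H3c15 and Ubb, which have near-identical copies, may have been placed on either copy.

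Candidates were mostly seen with the first WT IgM+ list. Of the 33, 30 and 22 had a peak in the IgM+ lists and 19 and 9 in the IgG1+ lists, in the order of list length. Without the first WT IgM+ list 14 of the 33 were left and without the second 21, while 48 regions met the rule without the KO IgM+ list. Peaks came from both isotypes in 24 regions, from IgM+ cells alone in 9 and from IgG1+ cells alone in 0. By position, 27 of 33 (81.8%, interval 64.5 to 93.0) had their best summit within 1 kb of an end of a protein-coding gene, 5 lay inside a gene and 1 was farther out. A summit within 1 kb of a gene end was found in 13.9% of the regions of exactly 1 WT list. The best summit was within 1 kb of a listed transcription start in 21 of 33. Where several lists called a candidate, their summits lay within a median range of 80 bp.

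The KO-shared regions were of 2 kinds. Those over 50 kb from any protein-coding gene numbered 25, and 15 of these lay at the start of chromosome 9 (chr9:3000918-3038262). They had a low fold and a very high rank by −log10 p: the region at chr2:98666585-98667302 ranked 1 in all 6 lists at a mean WT fold of 2.17. Their median mean fold was 2.14, with 22 of 25 under 3. The other 31 had a gene within 50 kb, of which 23 (74.2%, interval 55.4 to 88.1) lay within 1 kb of a gene end. The median mean fold of the 31 was 4.87, against 4.90 for the candidates. A mean WT fold under 3 was also found near genes, in 4 of the 31. Among recurring regions with a gene within 50 kb, 33 of 64 (51.6%) were candidates.

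Near genes, Kpnb1, which encodes the nuclear import receptor importin beta, had 4.07, 2.92, 4.17 and 4.63 in the WT lists and 4.56 in the KO IgM+ list. Its KO value lay inside the WT range. The region 1 to 50 kb from Col19a1 had 7.50, 4.84, 5.13 and 8.79 in WT and 6.08 and 6.34 in KO cells. Its peaks were unusually wide, at 4473 to 4597 bp in the IL-4 lists. Clic4, a chloride channel protein, had 6.53, 4.59 and 4.53 in WT and 4.05 and 6.55 in KO cells, while Mex3c on chromosome 18 had 5.71, 8.39 and 6.63 in WT and 4.21 in the KO IgG1+ list alone. Jarid2, Filip1l and Peak1 had low mean folds of 2.11 to 2.46 at sites inside the gene, with peaks in both KO lists. Filip1l joined its low fold to a high −log10 p (55.5, 40.6 and 29.5 in WT), as did the regions far from genes. Of the next in order, Lars2, a mitochondrial tRNA synthetase, had 2.57 and 2.70 in WT and 2.68 in KO IgM+ cells. Avl9 had 6.60 and 6.63 in WT IgM+ and 7.40 in KO IgM+ cells, and Sec23a, a coat protein of vesicles that leave the endoplasmic reticulum, 5.68 and 5.13 in WT IgM+ and 5.88 in KO IgM+ cells. Id3, an inhibitor of E-protein transcription factors, had 4.93 and 5.34 in the WT IgM+ lists and 5.21 in the KO IgM+ list. The highest WT means near genes were 7.77 ± 0.155 (n = 2) at Ppp2r3a, with 8.06 and 6.03 in KO cells, and 7.62 ± 0.261 at H2ac19. The H2ac19 region lay 649 bp from the candidate region of H3c15 in the histone cluster of chromosome 3, so neighbouring regions there fell into different classes. Reads in this cluster may have been placed on either copy, as stated above for H2ac18 and H3c15. The part of read placement in these classes was not tested. Of these 31 regions 15 had their KO peak in the KO IgM+ list alone, 4 in the KO IgG1+ list alone and 12 in both, although the KO IgG1+ list was the longest.

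**Figure D2:**
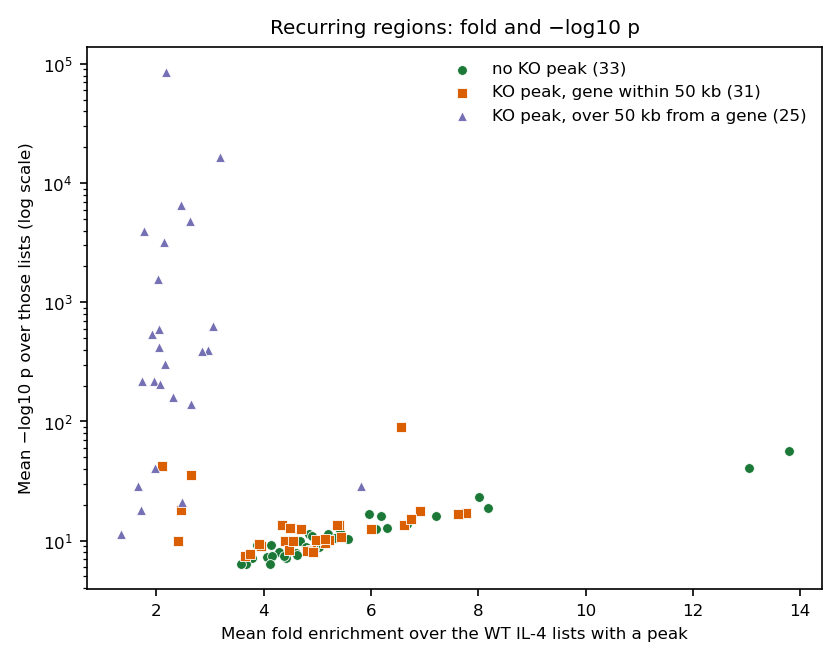
Mean fold enrichment (x axis) against mean −log10 p (y axis, log scale) over the WT IL-4 lists with a peak, 1 point per recurring region: 33 without a KO peak, 31 with a KO peak and a gene within 50 kb, and 25 with a KO peak over 50 kb from a gene. The last group sits at folds mostly under 3 with high −log10 p, the first 2 groups overlap, and Lsm4 and Thg1l stand alone at mean folds of 13.8 and 13.0.

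By rank of −log10 p within each list, candidates stood lower than KO-shared regions in all 4 WT lists. The median percentile (100 is the top of the list) of candidates was 88.9 and 60.5 in the IgM+ lists and 85.6 and 67.7 in the IgG1+ lists, against 98.1, 97.2, 96.2 and 95.9 for KO-shared regions. Peaks enter a list by the same −log10 p, and called peaks set the classes, so rank is not separate from the rule. The lists also share regions, so they are not 4 independent results. The mean rank difference was −21.2 percentile points, lower in 4 of 4 lists (exact two-sided sign-flip permutation over lists, p = 0.125, the smallest possible). The fold went the other way, with medians of 5.14, 4.37, 5.43 and 4.85 for candidates and 2.97, 2.24, 1.84 and 3.06 for KO-shared regions (mean log2 difference 1.00, higher in 4 of 4 lists, exact p = 0.125). Median peak widths were 398, 320, 388 and 250 bp against 401, 342, 389 and 422 bp (log2 difference −0.22, exact p = 0.125). The differences were smaller without the regions far from genes. With a gene within 50 kb in both classes, an alternative added after the data were seen, the rank difference was −12.2 (lower in 3 of 4 lists, exact p = 0.375), the log2 fold difference 0.05 (higher in 2 of 4, exact p = 0.5) and the log2 width difference 0.05 (exact p = 0.625).

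The lists from cells given IL-21 show whether the classes hold in libraries that the rule did not use. Of the 33 candidates, 22 and 20 had a peak in the WT IgM+ lists with IL-21 and 18 and 27 in the WT IgG1+ lists, against 2 in the KO IgM+ and 3 in the KO IgG1+ list. The mean share was 65.9% in WT and 7.58% in KO, a difference of 58.3 percentage points, with every WT list above both KO lists (exact permutation within isotype, p = 0.111, the smallest possible, which cannot reach 0.05). The WT lists with IL-21 held 2034 and 1171 peaks in IgM+ cells and 865 and 1485 in IgG1+ cells. The KO lists with IL-21 held 1073 (IgM+) and 648 (IgG1+), fewer than either WT list of the same isotype. The part of list length in this difference was not tested. KO-shared regions near a gene gave a mean of 50.0% in WT and 33.9% in KO (difference 16.1 points, exact p = 0.333), and those far from genes 76.0% to 84.0% in WT and 80.0% and 88.0% in KO. Regions of 1 WT IL-4 list with no KO peak were found in 1.02% to 3.06% of cases in the WT IL-21 lists. Adjusted over the 13 exact tests, the p-values other than that of the motif share over 12 lists were 0.325 or higher.

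**Figure D3:**
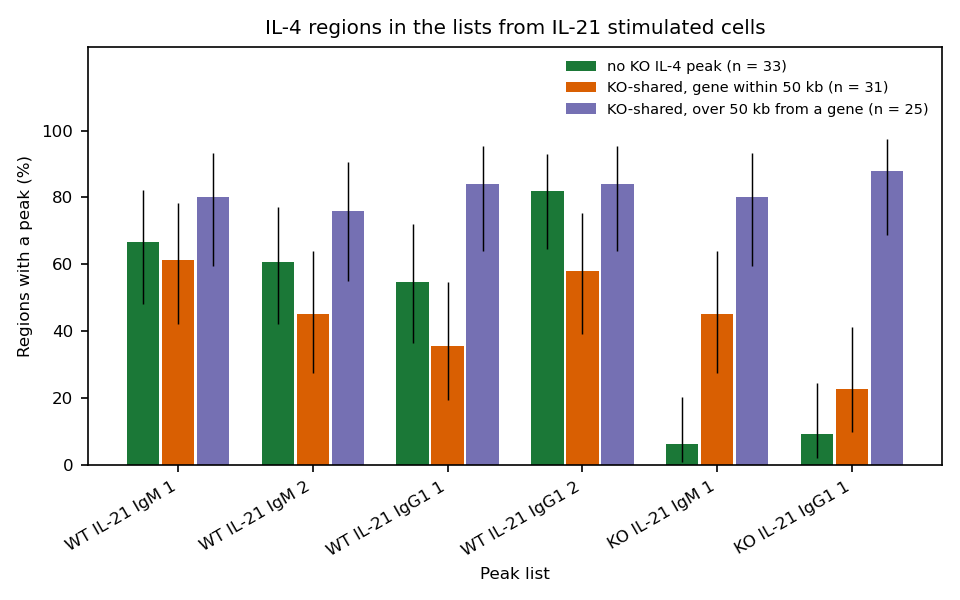
Percent of IL-4 regions with a peak in each of the 6 lists from IL-21 stimulated cells, by class, with exact 95% intervals that cover counting error only. Regions without a KO IL-4 peak reach 54.5% to 81.8% in the WT lists and 6.06% and 9.09% in the KO lists, while those with a KO peak far from genes lie at 76.0% to 88.0% in all 6.

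By the number of WT IL-21 lists with a peak, 16 candidates were in all 4, 12 in 1 to 3 and 5 in none. In all 16 the mean fold was higher with IL-21 than with IL-4, but these were picked by their peaks in the IL-21 lists. Among all candidates with a WT IL-21 peak it was higher in 26 of 28, and among such KO-shared regions in 16 of 47. Lsm4 had 103, 66.7, 59.6 and 56.7 with IL-21, and Slc39a1 had 95.4, 40.5, 48.6 and 47.1, all above their IL-4 values of at most 18.01 and 6.33. Jak3 had 9.78 to 29.1, Batf 8.09 to 19.8, Icam1 10.5 to 31.1 and the Stat3 promoter 8.55 to 23.5, all above their IL-4 folds. Jund stood closer, at 5.15 to 8.83 with IL-21 and 3.43 to 6.41 with IL-4, so that its ranges overlapped. The other group, with 1 to 3 IL-21 lists, had median mean folds of 5.23 (IL-21) and 4.52 (IL-4) and held Junb, H2ac18, H3c15 and Brd2. Map2k4, Mcm9, Paqr3, Tial1 and Zbtb9 had no WT IL-21 peak, and Map2k4 and Paqr3 each had 1 in a KO IL-21 list. These folds were not scaled between lists. The median fold of all peaks was 4.48 to 5.30 in the WT IL-21 lists and 4.22 to 4.78 in the WT IL-4 lists. No test was made of single regions between treatments, and the arms differ both by IL-21 and by the absence of IL-4 in the last hour.

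**Figure D4:**
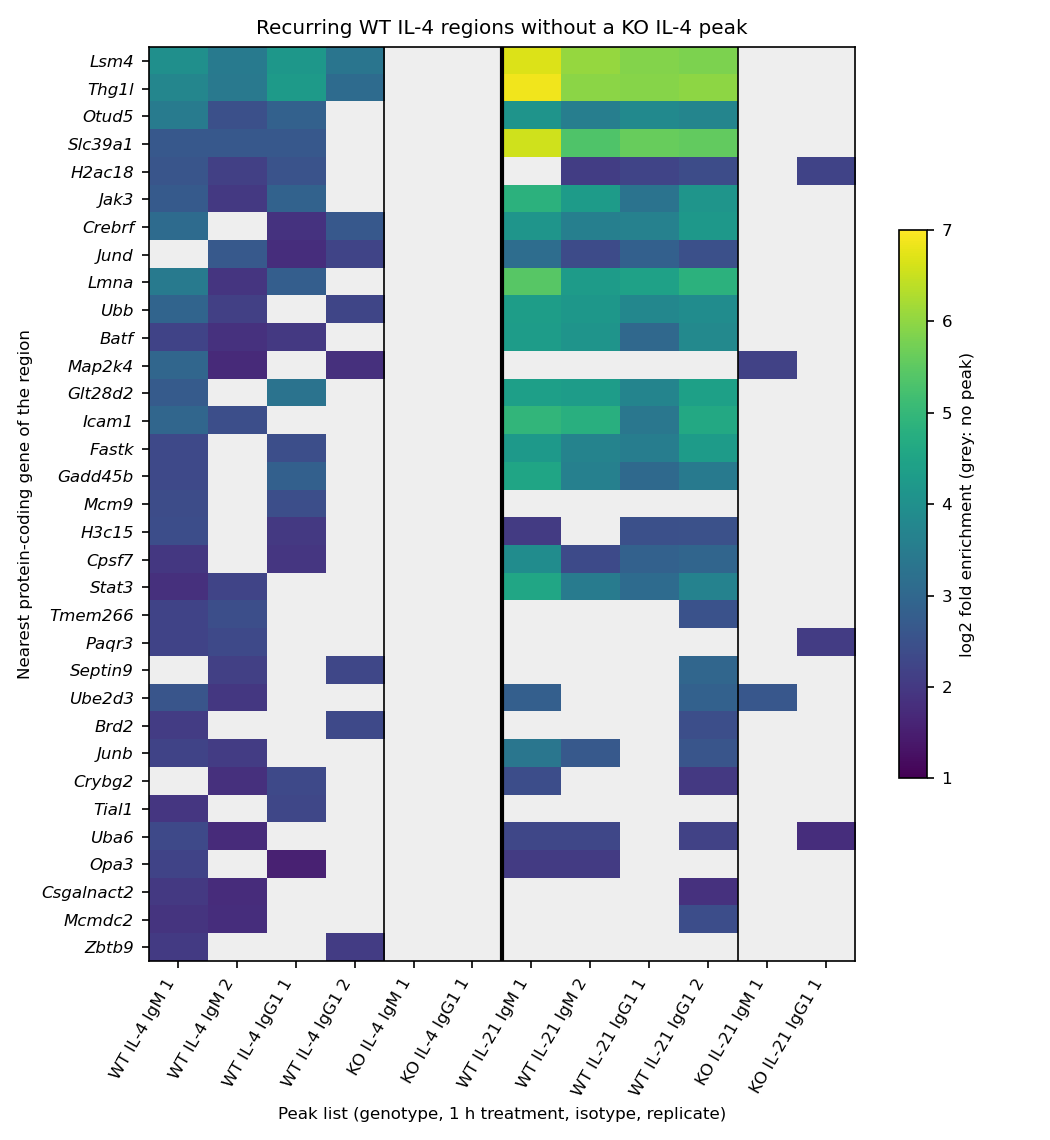
Log2 fold enrichment of the 33 recurring WT regions without a KO IL-4 peak (rows, named by the nearest protein-coding gene) in the 12 peak lists (columns; the thick line parts IL-4 from IL-21, thin lines part WT from KO), grey where the list has no peak. The KO IL-4 columns are empty by the rule, 16 rows are filled in all 4 WT IL-21 columns, and 5 rows have a peak in a KO IL-21 column.

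Gene lists of the tissue and treatment held few candidates. Of 28 genes of JAK-STAT signalling and feedback, 7 had a region in a WT IL-4 list and 2 (Jak3 and Stat3) a candidate region. Of all 21887 protein-coding genes 10.8% (2353) had a WT region, and 1.40% of these 2353 had a candidate region. The other 5 had peaks in single lists, Stat5a (4.43), Stat5b (5.28), Socs7 (3.98) and Il13ra1 (4.29) in the first IgM+ list and Ptpn11 (4.73) in the first IgG1+ list. Of 20 genes known to respond to IL-4 and STAT6, 2 had a WT region, Tfrc and the candidate Batf. Of 22 AP-1 and immediate early genes, 8 had a WT region and 2 (Junb and Jund) a candidate, and of 17 plasma cell genes 3 had one and 2 (Batf and Jund, which this list shares with others) were candidates. No candidate lay at the class switching (14 in the gene table, of 19 listed), B cell identity (31 of 32), survival (23) or NF-kB genes (21), which had 2, 6, 7 and 4 genes with a WT region. Id3, of the B cell list, was the only listed gene that was KO-shared. These lists are small, and nothing particular to a list was tested.

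The KO lists also held peaks that no WT IL-4 list had. Of the 2421 such regions, 25 were in both KO lists. The highest by rank with a gene nearby were at Mrgprd (folds 1.58 and 1.81 in KO IgM+ and IgG1+ cells), Nln (8.69 and 5.96), St6galnac1 (6.12 and 6.29), Ost4 (6.82 and 4.23) and Pdk1 (4.61 and 5.96). With IL-21, WT lists did have peaks there: 3 of the 4 at Mrgprd and 1 each at Nln, Ost4 and Pdk1, against 0 at the St6galnac1 region. The highest fold of the KO IgM+ list was 26.5, inside Deptor, which encodes an inhibitor of mTOR (chr15:55160631-55160893), where no other list of the series had a peak and the next highest fold of that list was 9.84. The KO IgM+ list also had the largest share of peaks at gene ends, 35.4%, against 11.8% in the KO IgG1+ list and 8.35% to 19.9% in WT (WT minus KO −8.77 percentage points, exact permutation p = 0.222). That difference was −0.68 points without the KO IgM+ list and −16.9 without the KO IgG1+ list.

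A stretch of chromosome 11 gathered KO peaks. The 100 kb bin from 116700001 to 116800000 held 7 peaks of the KO IgM+ and 14 of the KO IgG1+ list with IL-4, 9 and 13 of the KO lists with IL-21, and 0 of all 8 WT lists. These 43 peaks spanned 35029 bp (chr11:116740219-116775247) with folds of 3.35 to 9.36, and 7 had their summit inside St6galnac1, which encodes a sialyltransferase. No other bin without WT peaks held more than 4 KO peaks. The stretch was chosen after its values were seen, and the deletion and any other difference between the KO and WT cells cannot be told apart there. It lies on the chromosome that carries Stat3 (chr11:100886806-100939594), at higher coordinates.

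**Figure D5:**
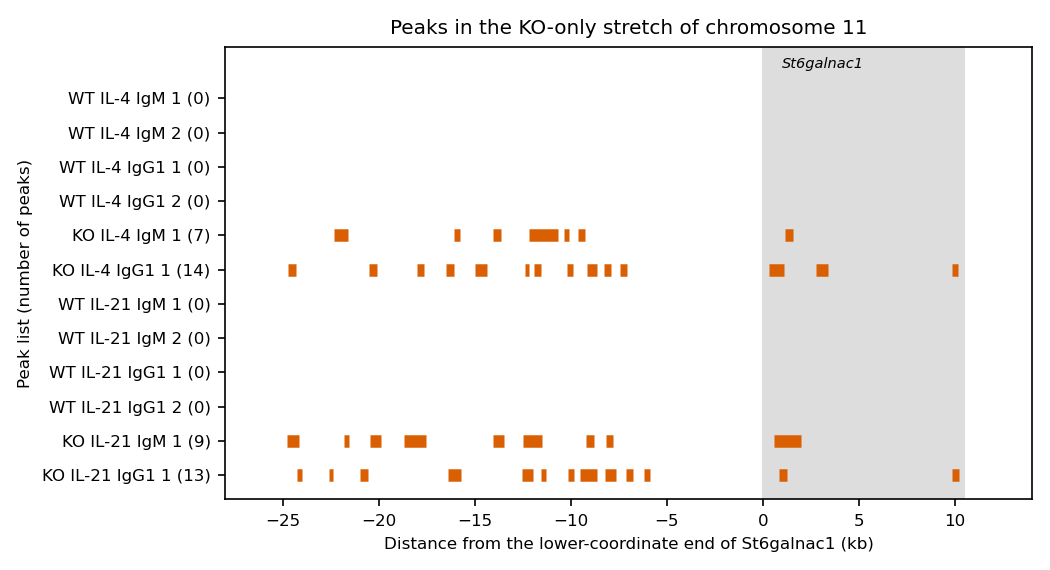
Peaks of the 12 lists (rows, with the number of peaks) along the KO-only stretch of chromosome 11, as distance in kb from the lower-coordinate end of St6galnac1 (shaded). The 4 KO lists hold 7, 14, 9 and 13 peaks over 35029 bp and the 8 WT lists none.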

How the data were processed

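Anti-STAT3 CUT&RUN peak lists of 12 libraries were deposited, 1 per library, and 6 (IL-4) carried the comparison. No use was made of the input sample. Build mm10, MACS2 2.2.7.1, Trimmomatic 0.39, deepTools 3.5.1 and Bowtie2 2.4.1 are in the submitters' processing notes, with no roles; the peak calling control and any filter of repeats are not given there. The deposited lists give the authors' fold enrichment (a ratio to local background), −log10 p, −log10 q and a score. The lowest deposited −log10 p was 5.00 to 5.14. Depth is not given; a fragment pileup and background that match the fold and −log10 p to within 0.001 were found for 99.2% to 100% of the peaks tried in each list.

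Peaks off chromosomes 1 to 19, X and Y (30 to 35 per list) were left out. Folds were tested only within a list. Elsewhere the authors' values were averaged over lists or set side by side between lists, with no scaling between lists. Genes came from RefSeq spans (GRCm38.p6, 21887 protein-coding genes, without strand or exons), so exon or intron is not given; the nearest span within 50 kb of the best summit (highest −log10 p) named a region. Promoter windows came from RefSeq (32851 windows). WT and KO lists were compared by exact permutation within isotype. Candidate and KO-shared regions were compared by exact sign-flip permutation over the 4 WT IL-4 lists, with isotypes pooled. All 13 tests were adjusted together by Benjamini-Hochberg. The merging and classing of regions were checked on simulated lists with planted regions. The permutation tests were checked only on small inputs with a known answer. Named genes were the first 25 candidates by number of WT lists and mean rank, the first 10 KO-shared regions with a gene within 50 kb, listed genes, the highest fold per list (for 4 of the 6 lists; the others are not reported here) and the first 5 KO-only regions; others named were chosen after their values were seen. The members, gene lists and alternatives were chosen with earlier results of these data known. Python 3.11.15, pandas 2.3.3 and SciPy 1.17.1 were used.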

Additional observations from a re-analysis of the deposited data

Results flagged for a closer look

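The difference in peak number between genotypes had opposite signs in the 2 isotypes. The mean log2 peak number of the WT lists minus that of the KO list was 0.55 in IgM+ cells (1455 and 853 against 763 peaks) and −1.57 in IgG1+ cells (651 and 623 against 1892). Each WT list moved the same way within its isotype. The difference between isotypes was not tested, and it rests on 1 KO list each. Sets of 4 WT values checked for a list far from the others numbered 6, and none was.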

How the results depend on the processing

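Of 130 alternative values, 13 moved, 2 reversed and 115 did neither: counts stayed within 1.5 times, shares within their counting intervals, and tested differences only kept their sign and side of 0.05; the lowest exact p among these was 0.111, and none of these tests could reach 0.05. Lsm4 and Thg1l were candidates under each of the 14 settings. Requiring at least 3 of 4 WT lists left 12 candidates and 28 KO-shared regions with a gene-end difference of 64.3 percentage points (40.7 as reported) and a rank difference of −10.4, and requiring both replicates of an isotype left 21 candidates. Leaving out 1 list at a time gave 14 to 48 candidates (14 without the first and 21 without the second WT IgM+ list, 48 without the KO IgM+ list), 36 to 51 KO-shared regions (36 without the first WT IgM+ list), 28.0% to 54.5% of recurring regions without a KO peak (54.5% without the KO IgM+ list), a gene-end difference of 39.7 to 61.9 points (61.9 without the second WT IgM+ list), a rank difference of −26.6 to −12.9 (−12.9 without the second WT IgM+ list), a log2 width difference of −0.45 (without the first WT IgG1+ list) to −0.03 (without the second), a difference in gene-end peak share of −16.9 to −0.68 points (without the KO IgG1+ and the KO IgM+ list), and a log2 peak number difference of −1.57 to 0.55, which reversed to 0.55 without the KO IgG1+ list. Only counting regions with a gene within 50 kb (added after the data were seen) left 31 KO-shared regions, 51.6% without a KO peak, a gene-end difference of 7.62 points and a reversed log2 width difference of 0.045. The motif share was 0 with a spacer of 4 and 28.6% with the palindrome inside the region, an alternative added after the data were seen. It was 32.3% to 57.1% of candidates under the 14 settings and 0 among KO-shared regions, except with a KO peak counted in any of 4 KO lists (2 of 24). No cause of these moves was tested. No paired analysis was possible because the WT and KO groups share only 1 replicate number. Short lists limit all of this: with 10 or more fragments needed for a peak, a site can be missed in a KO list, and 1 KO list per isotype gives no replicate spread.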

Other observations

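Some listed genes had a region outside the recurring set. Among the IL-4 lists, Ptpn2 of the JAK-STAT genes had a region in a KO list only, as did Cd79a, Cxcr4, Mef2b, Mef2c and Bcl11a of the B cell genes. The Bcl11a region also had a peak in 3 WT lists with IL-21. Of 15 housekeeping genes 0 had a region in a WT IL-4 list, where 10.8% of all protein-coding genes had one. Ywhaz, one of the 15, had a region in a KO IL-4 list and in 1 WT list with IL-21. A region in a WT IL-4 list lay at 2 of 14 myeloid genes (Itgam and Fcgr3) and at 0 of 15 T and NK cell genes, with 1 more listed gene not in the gene annotation.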
